A study of Mus musculus with 9 samples.

Results

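Long intergenic noncoding RNAs (lincRNAs) are transcripts from loci between protein-coding genes that carry no recognised reading frame. The lincRNAs described here are the genes that the deposited count table labels as lincRNA and that had at least 1000 reads summed over the 9 libraries, each Ensembl gene counted once. H19, Meg3, Rian, Mirg and Airn are set aside by name, although 0 of them had enough counts. This gave 76 genes, out of 5629 lincRNA genes and 55487 genes in the table. They were selected on the summed count, so their levels are given as a description. The sum runs over all groups, so a gene that is high in 1 group can pass through that group. Had all libraries been at the WT level, 6 of the 76 would have been under the minimum: Gm49980, Gm46620, Gm42031, AC160336.1, 4930558J18Rik and 3110039M20Rik. At the KD level this holds for AC160336.1, and at the OE level for BC030343, A530017D24Rik and 3110039M20Rik.

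RNA-seq was done on MCEC, an established line of murine cardiac endothelial cells, in 3 groups of 3 libraries. Unmodified cells are called WT, cells with Zbtb46 knocked down are called KD, and cells with enforced expression of Zbtb46 are called OE. Zbtb46 encodes a transcription factor with a BTB domain and zinc fingers. The labels do not say how knockdown or overexpression was made, whether each modified line is 1 clone, or whether the replicates were separate cultures, and no cells with a control vector were analysed here. P-values therefore measure the spread between these libraries, which may be technical.

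Total counts ran from 39491828 to 55745849 per library, and ribosomal RNA features took 7.44% to 18.21% of them. In CPM, a gene's share of its library's counts on a scale common to all libraries, WT had a Zbtb46 level of 13.7 ± 0.623 (SD, n = 3), KD of 11.2 ± 0.537 and OE of 191.4 ± 2.67. The KD level was lower by 0.28 on the log2 scale (adjusted p = 0.00144, edgeR quasi-likelihood test with Benjamini-Hochberg adjustment), so the knockdown is a modest one at the RNA level. Of 14 endothelial markers, Pecam1, Cdh5, Tie1, Emcn, Cldn5 and Vwf were under 0.5 CPM in every library and Erg was at 0 counts, while Eng (119 to 132 CPM in WT), Ets1 (63.2 to 71.8), Flt1 (17.0 to 17.3) and, at lower levels, Egfl7, Kdr, Tek and Esam were detected. Their summed level was 211 to 223 CPM in WT, 199.6 to 206 in KD and 164 to 172 in OE. The summed level of 7 fibroblast markers was 5110 to 5676 CPM in WT, 4847 to 4912 in KD and 4039 to 4133 in OE. Nearly all of it was Col1a1 (4992 to 5567 CPM in WT), while Lum, Fbln1 and Tcf21 were under 0.5 CPM in every library. The summed level of 5 epithelial markers was 461 to 563 CPM in WT, 437 to 459 in KD and 462 to 483 in OE. Nearly all of that was Krt19 (458 to 560 CPM in WT), while Epcam and Cdh1 were under 0.5 CPM in every library. In WT, markers of smooth muscle and pericytes summed to 11.3 to 14.6 CPM, of leukocytes to 3.82 to 4.05 and of cardiomyocytes to 0.74 to 1.05. The part of these markers in the results was not tested.

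LincRNAs act in several known ways. Some build nuclear bodies (Neat1 in paraspeckles) or collect in them (Malat1 in speckles), some bind proteins or microRNAs through repeated or extended sites (Norad and Pumilio proteins, Cyrano and miR-7), and some carry small nucleolar RNAs (snoRNAs) in their introns, which are released when the host is spliced. For others, transcription of the locus or the RNA itself acts on a neighbouring gene.

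For a pair of the most abundant lincRNAs the sequence that carries the known function can be read from the reference. Cyrano, listed as Oip5os1, is shown because its known partner, miR-7, pairs with it at an extended site. The mature microRNA is written from the RefSeq table (GRCm38.p6) with its seed, bases 2 to 8, in capitals, and the 26 bases of Oip5os1 at chr2:119602136-119602161 (GRCm38, plus strand) are written with the match to that seed in capitals.
mmu-miR-7a-5p: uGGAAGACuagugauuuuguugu
Oip5os1 site: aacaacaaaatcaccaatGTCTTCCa
Upstream of the seed match lies a run of 13 bases that is complementary to the 3′ part of the microRNA. The 8300-base transcript holds 2 matches to the complement of the seed, and 16 of the 76 lincRNAs hold at least 1 in their longest transcript, so the seed match alone does not set Oip5os1 apart.

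Norad, listed as 2900097C17Rik, is shown with Gm7292, a lincRNA on another chromosome whose transcript aligned with it over 2537 bases at 99.2% identity. The 140 bases below come from chr2:156391349-156391488 (minus strand) for Norad and chr6:117717806-117717945 (plus strand) for Gm7292, both on GRCm38. Capitals mark the Pumilio motif TGTANATA on the transcribed strand.
Norad: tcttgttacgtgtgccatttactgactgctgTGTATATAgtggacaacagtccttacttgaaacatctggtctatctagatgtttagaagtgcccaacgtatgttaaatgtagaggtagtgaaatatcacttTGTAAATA
Gm7292: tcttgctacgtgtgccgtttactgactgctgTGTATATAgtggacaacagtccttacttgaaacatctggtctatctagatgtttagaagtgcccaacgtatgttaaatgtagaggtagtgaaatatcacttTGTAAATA
The 2 stretches differ at 2 bases, neither of them in a motif. Norad holds 11 matches in all, or 2.24 per kb, Gm7292 holds 9, or 3.56 per kb, and the other lincRNAs together hold 0.099 per kb. How the counting divided reads between such a pair is not given in the sources used here, so the counts of each are uncertain.

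Counts were concentrated in a few of the 76 genes. The 5 with the highest sums, Malat1, Bc1, Neat1, Norad and Oip5os1, held 60.7% of their counts, while the median sum was 3182.5 and 49 were under 5000. Just inside the minimum of 1000 were 3110039M20Rik with 1015 counts, 4930558J18Rik with 1017 and AC160336.1 with 1021. Just outside it were Gm47469 with 996, Gm20342 with 975 and 2700054A10Rik with 966. Several well-known lincRNAs were far under it, among them Xist, the RNA that coats the inactive X chromosome, with 17 counts over all libraries, Hotair with 9 and Miat with 2. The cardiac lincRNA Bvht, with 908, was close to it.

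Per kilobase of exon the order was different. The scale here is CPM per kb as a mean over the 3 WT libraries. Bc1, a short cytoplasmic RNA with an exon length of 168 bases, had 1235 CPM per kb. That length is close to the read length of 150 bases, so its value per kb is uncertain. Whether reads of similar sequence elsewhere add to its counts was not tested. Gm10076, chosen for mention after its value was seen, had 147, Malat1 had 86.0, Norad had 27.0 and Oip5os1 had 14.6. Neat1, spread over 20771 bases of exon, had 8.74, which was 9.83 times less than Malat1. The RNA was poly-A selected, so levels here are those of the RNA captured that way. Which part of the 20771 bases the reads of Neat1 cover was not tested, so its value per kb and this ratio are uncertain. The median of the 76 was 2.72, and the lowest in WT were Gm42031 at 0.0202 and AC160336.1 at 0.0219, the latter on a model of 93147 bases.

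**Figure D1:**
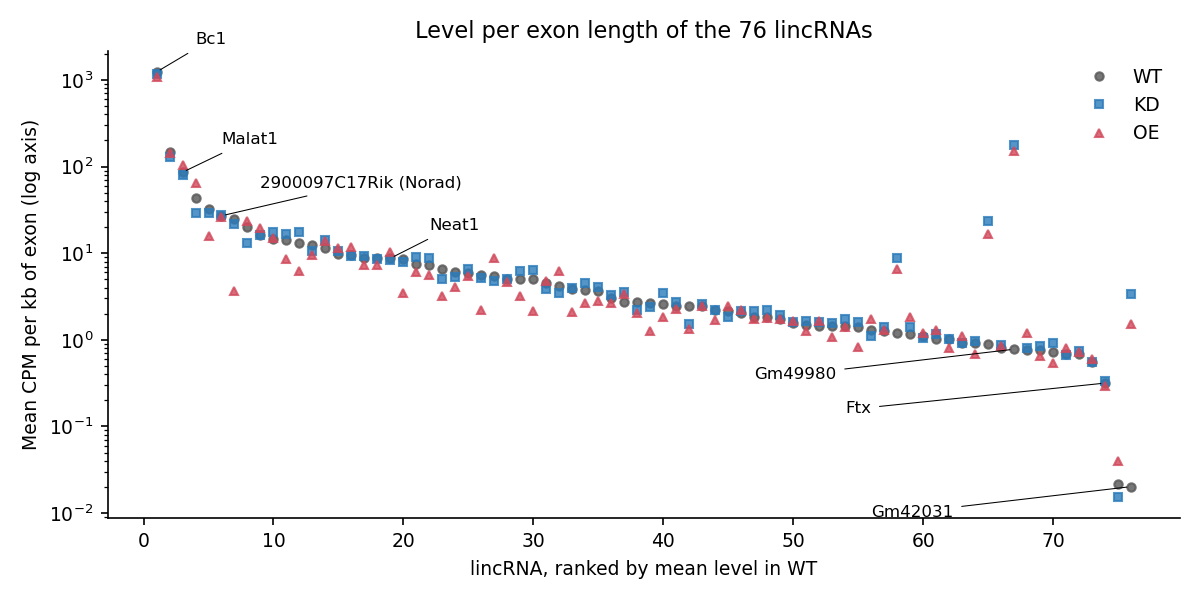
Mean level in CPM per kb of exon (log axis) of the 76 lincRNAs, ranked by their level in WT, for WT (circles), KD (squares) and OE (triangles), each point a mean of 3 libraries. Bc1 leads at 1235 CPM per kb in WT, the WT median is 2.72, and in KD and OE Gm49980 lies far above its WT level while Malat1 and Norad lie close to theirs.

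The genes share few other features. Of the 76, 56 carry only a predicted-gene, Riken or clone name, 14 consist of a single block of exon, and exon length ran from 168 to 93147 bases with a median of 2464. GC content of the longest transcript ran from 37.1% to 75.5% with a median of 47.6%. Chromosome 5 held 13 of them, or 17.1%, beside 10.2% of the lincRNA genes tested and 6.57% of all genes tested. The term intergenic is loose here: 25 share exon bases with another annotated gene, 16 of them with a gene on the other strand, and whether the counting used strand is not given in the sources used here. A further property bears on the counts directly, since 27 have a gene elsewhere in the genome with at least 90% identity over 300 bases or more. Bc1, with 168 bases, is too short to be found by this search. Erdr1 and Gm47283 are listed as protein coding in GENCODE M21.

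All 76 passed the filter on low counts and were tested. Group tests come from 1 edgeR quasi-likelihood fit of the 9 libraries, and a call means a Benjamini-Hochberg adjusted p under 0.05 among the 16955 genes tested. In bulk RNA, fewer cells of a type and less RNA per cell cannot be told apart. Some difference among the 3 groups was found for 46 of the 76 (60.5%), beside 47.7% of all genes tested and 60.8% of the 11559 with at least 1000 counts. The share in the lincRNAs was thus close to that of all genes over the same minimum count.

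In KD, 11 lincRNAs were higher and 5 lower than in WT, which is 21.1% of the 76 beside 21.3% of all genes tested (11.0% higher and 10.4% lower) and 27.8% of those with at least 1000 counts. The share called was thus not above that of all genes. Groups did not overlap for 32 of the 76 (42.1%), beside 34.7% of all genes tested. That share is not given here for genes with at least 1000 counts, so no excess is read from it. The median log2 fold change was 0.07, beside 0.00 for all genes tested. Only the 4 genes with shared sequence described next passed the threshold with a change of at least 2-fold, and 0 did so downward, beside 2.64% of all genes tested in either direction. Of the 11, Gm49980, Gm46620 and Gm42031 are over the minimum count only through KD and OE, so their rise is no support for the count. The split rests on the scaling and on single libraries. With library totals alone it became 6 higher and 6 lower, and without KD replicate 1, 2 or 3 the number higher was 7, 6 and 7.

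In OE, 15 lincRNAs were higher and 24 lower than in WT. Together these are 51.3% of the 76, beside 36.4% of all genes tested (17.0% higher and 19.5% lower) and 46.9% of those with at least 1000 counts. Groups did not overlap for 45 (59.2%), beside 45.1% of all genes tested. The median log2 fold change was -0.05, and the median size of change was 0.32, beside 0.18 for genes with at least 1000 counts. At least 2-fold changes past the threshold were found upward for 4 and downward for 8, or 12 of the 76, beside 5.34% of all genes tested. For genes with at least 1000 counts the shares without overlap and with 2-fold changes are not given here, so no excess is read from either. Of the 15 that were higher, Gm49980, Gm46620, Gm42031 and AC160336.1 would be under the minimum count at the WT level, and of the 24 that were lower, BC030343 would be under it at the OE level. Without the 8 lincRNAs that 1 group's level would put under the minimum, 8 were higher and 5 lower in KD, and 11 were higher and 23 lower in OE. OE also differed directly from KD for 39 of them, with 10 higher and 29 lower in OE (51.3%, beside 41.5% of all genes tested, of which 19.4% were higher and 22.1% lower, and 52.6% of those with at least 1000 counts), and the median of that difference was -0.23. The 29 include Gm49980, Gm46620, Gm42031 and BC030343, and the 10 include AC160336.1, so these are no support for the count. Without the same 8 lincRNAs, 9 were higher and 25 lower in OE than in KD. Without the 4 genes with shared sequence described next, 10 were higher and 25 lower.

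Both comparisons share the WT libraries, so the calls are set side by side. Against WT, 6 lincRNAs were higher in both KD and OE, 3 were lower in both, 4 were higher in KD and lower in OE, and 2 had the reverse pattern. Oip5os1 was called only in KD, 24 were called only in OE (7 higher, 17 lower), and 36 were called in neither. These counts follow the thresholds, and a call in one comparison and not in the other is not a test of their difference.

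**Figure D2:**
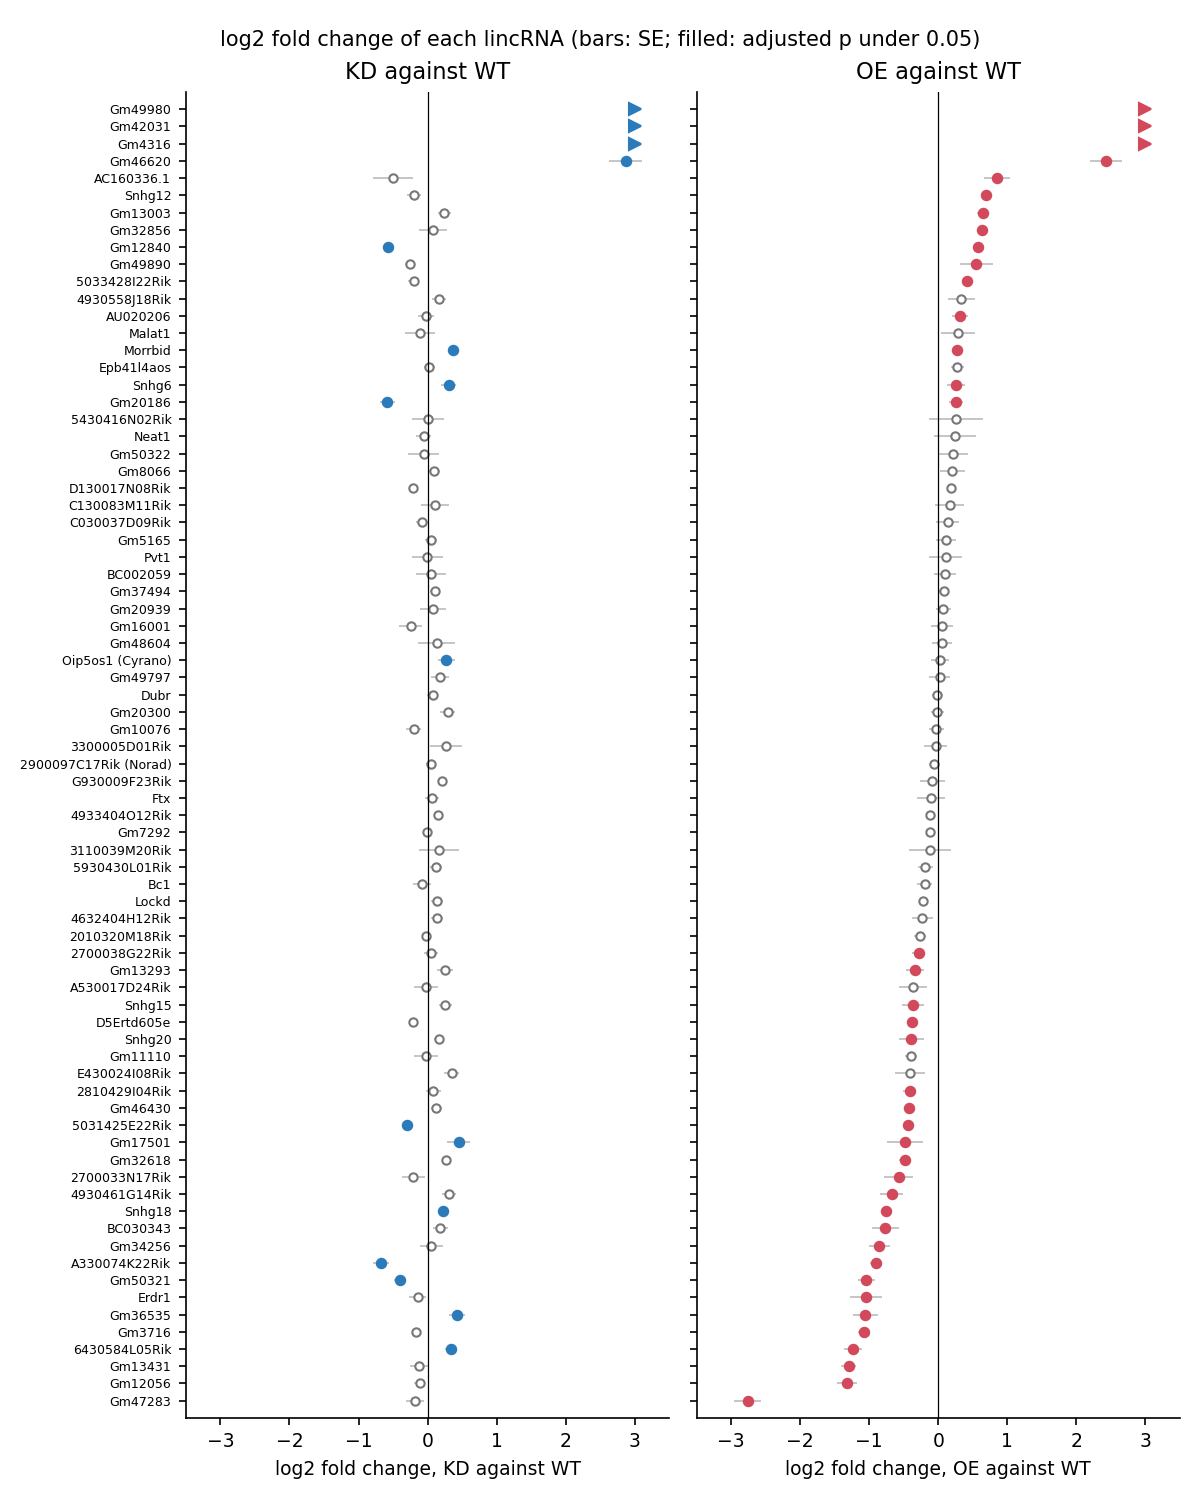
log2 fold change against WT of each of the 76 lincRNAs in KD (left) and OE (right), in the order of the OE values, with bars for the standard error and filled points for adjusted p under 0.05. Arrowheads at the right edge stand for Gm49980, Gm42031 and Gm4316, whose values are above 3 in both; filled points number 16 in KD and 39 in OE, where 24 lie below 0.

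The largest rises over WT, in both modified lines, were in 4 predicted genes: Gm49980 and Gm46620 on chromosome 18, and Gm4316 and Gm42031 on chromosome 8. All but Gm4316 were chosen in part by these rises, since their WT counts alone would leave them under the minimum. The files attach no function to any of them. Gm49980 had 28, 78 and 32 counts in WT, 10374, 8352 and 10329 in KD, and 8042, 8937 and 8317 in OE. All 6 modified libraries were thus far above every WT library, with no overlap. Mean levels were 0.922 ± 0.337 CPM for WT, 209 ± 2.81 for KD and 179 ± 6.86 for OE (SD, n = 3), with log2 fold changes of 7.75 (SE 0.27, adjusted p = 1.27e-18) and 7.53 (SE 0.27, adjusted p = 1.04e-18).

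Gm4316 had 3.08, 3.14 and 3.27 CPM in WT, 86.1, 86.9 and 77.2 in KD, and 60.2, 56.6 and 61.0 in OE. The KD libraries were highest, the OE libraries lay between, and no groups overlapped. It was 26.3-fold higher in KD (log2 fold change 4.72, adjusted p = 1.7e-20) and 18.7-fold higher in OE (4.22, adjusted p = 1.03e-19). Gm46620 had 1.58, 2.60 and 2.53 CPM in WT, 18.0, 15.6 and 16.4 in KD, and 12.9, 12.4 and 11.8 in OE, again in 3 separate bands. Its log2 fold changes were 2.87 in KD (adjusted p = 2.57e-12) and 2.44 in OE (adjusted p = 8.41e-12).

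Gm42031 was close to absent in WT, with 2, 1 and 2 counts, and had 294, 196 and 396 counts in KD and 135, 154 and 119 in OE. After scaling for library size, the ratio of summed counts was 181.2 for KD, with a 95% counting interval of 77.37 to 559.6, and 82 for OE, with an interval of 34.85 to 253.9. These intervals cover counting error only. All 4 genes were lower in OE than in KD, by 0.23, 0.49, 0.43 and 1.13 on the log2 scale for Gm49980, Gm4316, Gm46620 and Gm42031 (adjusted p = 0.00631, 2.69e-07, 0.0035 and 2.98e-05). For Gm4316 that difference was -0.02 (adjusted p = 0.814) after subtracting the median log2 fold change of the fixed stretch, of up to 20 Mb, that holds it.

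These 4 genes share sequence, so they are not 4 separate observations. Every pair aligned, at 92.2% to 97.3% identity over 371 to 614 bases. Some genes of other classes that align with them rose in both KD and OE, namely Gm43305, Gm42427, Gm46223, Gm10524 and AI506816. Gm37416 aligns too and was called in neither comparison against WT (adjusted p = 0.205 in KD and 0.522 in OE). Gm42429, Gm43366 and the lincRNA Gm48681 also align and had 9, 0 and 0 counts over all libraries. Gm43305 on chromosome 14 had 1, 6 and 0 counts in WT and 10327, 8212 and 9677 in KD, and Gm42427 on chromosome 5 had 0, 3 and 1 in WT and 761, 537 and 698 in KD. Of the 5 tested protein-coding genes that hold a similar stretch, Chd9 (adjusted p = 0.809 in KD and 0.438 in OE), Cnbd2 and Miga1 were called in neither comparison. Cep85 rose in OE by 0.68 (adjusted p = 5.38e-09) and did not pass in KD, and Apobec3 fell in KD by 0.24 (adjusted p = 0.0169) and did not pass in OE. How reads that fit several places were counted is not given in the sources used here, so the counts cannot be assigned to 1 locus. The nearest protein-coding genes of the 4, Pik3c3, Sult5a1, Zfp236 and Zfp791, were called in neither comparison. Without these 4 genes, the count of lincRNAs higher in KD was 7.

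**Figure D3:**
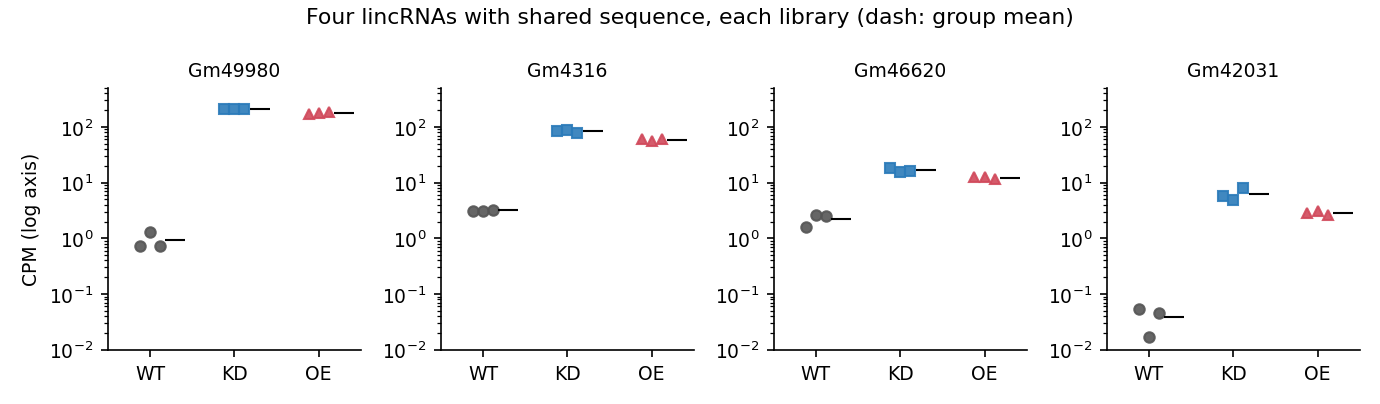
Level in CPM (log axis, same range in each panel) of Gm49980, Gm4316, Gm46620 and Gm42031 in each library of WT, KD and OE, with a dash for the mean of 3 libraries. In every panel the 3 WT points lie below all 6 points of KD and OE, and the OE points lie below the KD points.

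Among the abundant lincRNAs with a described nuclear or cytoplasmic role, most did not pass the threshold. Malat1, the nuclear speckle RNA, had 763, 572 and 467 CPM in WT, 548, 604 and 520 in KD, and 804, 784 and 607 in OE. The WT libraries spanned the whole KD range and overlapped OE, and neither difference passed (adjusted p = 0.789 and 0.339). Malat1 alone made up 27.4% to 36.1% of the counts of the 76 lincRNAs in WT libraries, 24.6% to 26.9% in KD and 30.2% to 34.3% in OE. Neat1, the scaffold of paraspeckles, had 180, 196 and 169 CPM in WT, 197, 169 and 160 in KD, and 247, 259 and 137 in OE. The third OE library was the lowest of all 9 and the other OE libraries were the highest, and the difference from WT did not pass (log2 fold change 0.24, SE 0.30, adjusted p = 0.523). Without OE replicate 3 it was 0.48 with an adjusted p of 0.00038, so 1 library decides that call, and OE against KD then passed as well (0.53, adjusted p = 0.000111).

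Bc1 had 239, 195 and 189 CPM in WT, 179, 212 and 198 in KD, and 186, 174 and 182 in OE. All OE libraries were below all WT libraries by a narrow margin, and the difference did not pass (log2 fold change -0.20, SE 0.11, adjusted p = 0.103). It did pass in DESeq2 (adjusted p = 0.0337), with library totals alone (adjusted p = 0.00589), with no filter beyond 1 count (adjusted p = 0.00014) and without KD replicate 1 (adjusted p = 0.0457). Norad varied little, with 136, 141 and 121 CPM in WT, 135, 142 and 135 in KD, and 125, 129 and 130 in OE. KD and OE both overlapped WT and neither difference from it passed (adjusted p = 0.569 and 0.431). Without WT replicate 3, the change in OE went from -0.06 to -0.12 and passed (adjusted p = 0.0179). OE was below KD without passing, and that difference passed with only those groups fitted (0.00237) and without WT replicate 2 (0.0287) or WT replicate 3 (0.0135). Gm7292, its near copy, had means of 12.9, 12.8 and 11.9 CPM and was called in no comparison.

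Oip5os1, the transcript with the miR-7 site shown above, had 120, 140 and 104 CPM in WT, 144, 150 and 145 in KD, and 125, 127 and 119 in OE. Every KD library was above every WT and OE library. It rose in KD by 0.27 on the log2 scale (SE 0.13, adjusted p = 0.0384) and was lower in OE than in KD (-0.24, adjusted p = 0.0355), while OE and WT overlapped (adjusted p = 0.832; 0.0327 without WT replicate 2). The rise in KD did not pass without any 1 of the 3 KD libraries, with adjusted p-values of 0.0716, 0.104 and 0.0733, or without WT replicate 1 (0.114) or OE replicate 1 (0.0505), nor with library totals alone (0.0897) or only the groups compared (0.0578). The difference between OE and KD did not pass with upper-quartile factors (0.0664), nor when any 1 of 7 libraries was left out, namely WT replicate 1 (0.057), a KD library (0.0546, 0.0821 and 0.0622) or an OE library (0.0724, 0.0534 and 0.11).

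The remaining named lincRNAs sit next to genes they are known in connection with. Morrbid, which lies 15772 bases from Bcl2l11, the gene of the pro-apoptotic protein Bim, and is known to repress it in myeloid cells, had 11.7, 10.8 and 11.3 CPM in WT, 14.0, 14.0 and 15.4 in KD, and 13.9, 13.3 and 13.7 in OE. All WT libraries were lowest, and it rose in KD (0.37, SE 0.06, adjusted p = 0.00256) and in OE (0.28, SE 0.04, adjusted p = 0.0104). With library totals alone the adjusted p in OE was 0.084. Bcl2l11 itself had 47.3, 49.9 and 43.2 CPM in WT and 34.3, 34.9 and 35.6 in KD, a fall of 0.42 on the log2 scale (adjusted p = 3.71e-05), and did not pass in OE (-0.15, adjusted p = 0.0566).

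Lockd, downstream of the cell cycle inhibitor gene Cdkn1b, had 8.36, 8.50 and 8.91 CPM in WT, 10.4, 9.39 and 8.58 in KD, and 7.40, 7.55 and 7.11 in OE. OE was below WT and KD in every library, and the difference passed against KD (-0.36, adjusted p = 0.00671; 0.0507 without KD replicate 1) and not against WT (adjusted p = 0.0973). Pvt1, next to Myc, Dubr, studied in muscle progenitors, and Ftx, a noncoding gene of the X-inactivation centre that hosts microRNAs, passed the threshold in no comparison. Their means were 3.87, 11.5 and 3.23 CPM in WT, and their largest change against WT was 0.11 on the log2 scale.

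The snoRNA host genes moved in different directions in OE. Of the 76, 6 are snoRNA hosts in the list used here: Snhg6, Snhg12, Snhg15, Snhg18, Snhg20 and Epb41l4aos. In OE, Snhg12 and Snhg6 rose, Snhg18, Snhg20 and Snhg15 fell, and Epb41l4aos did not pass. In KD, Snhg18 and Snhg6 rose and the other 4 did not pass.

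Snhg18 had 22.0, 22.3 and 19.8 CPM in WT, 24.0, 25.4 and 25.6 in KD, and 12.4, 13.2 and 12.4 in OE. The 3 groups formed separate bands, with OE lowest. It fell by 0.75 in OE (1.69-fold, SE 0.06, adjusted p = 5.67e-08) and rose by 0.22 in KD (SE 0.06, adjusted p = 0.0277). The rise in KD did not pass with library totals alone (adjusted p = 0.153) or upper-quartile factors (0.0518). It also did not pass after subtracting the median log2 fold change of the fixed 20 Mb stretch that holds Snhg18 (0.2). Leaving out the third WT library (0.105) or the second (0.105) or the third (0.109) KD library ended the call as well.

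Snhg12 had 13.9, 12.4 and 12.6 CPM in WT, 11.6, 12.3 and 10.1 in KD, and 20.9, 22.4 and 19.7 in OE. All OE libraries stood above the other 6. It rose in OE by 0.70 (1.62-fold, SE 0.07, adjusted p = 1.93e-06) and did not pass in KD (-0.19, adjusted p = 0.144). The 20 Mb stretch of chromosome 4 that holds it had a median change of 0.35 in OE, and with that median removed the change of Snhg12 was 0.35. Its neighbour Trnau1ap, 739 bases away, was 0.20 higher in OE (adjusted p = 0.032).

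Snhg6 had 12.9, 14.8 and 11.5 CPM in WT, 15.9, 15.8 and 16.9 in KD, and 17.1, 15.6 and 14.3 in OE. Every KD library was above every WT library, whereas OE overlapped WT. It rose by 0.31 in KD (adjusted p = 0.0246) and by 0.26 in OE (adjusted p = 0.0367). Both calls were lost with library totals alone (0.108 and 0.186), with the median of its 20 Mb stretch removed (0.193 and 0.264), and after WT replicate 1 (0.0675 and 0.0859) or WT replicate 3 (0.11 and 0.186) was left out. Leaving out KD replicate 1, 2 or 3 also ended the call in KD (0.0576, 0.057 and 0.109), and leaving out KD replicate 1 or 2 or OE replicate 1 or 2 ended the call in OE (0.0595, 0.0537, 0.187 and 0.0812), as did a fit of only the groups compared (0.081).

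Snhg15 had 10.6, 10.4 and 8.64 CPM in WT, 12.0, 11.9 and 11.6 in KD, and 8.29, 8.28 and 6.40 in OE, with OE lowest. Its fall in OE was 0.37 (adjusted p = 0.0138). The 20 Mb stretch of chromosome 11 that holds it had a median change of -0.52, and with that removed Snhg15 was 0.15 higher (adjusted p = 0.342). Snhg20 had 11.0, 9.56 and 9.98 CPM in WT, 11.2, 11.2 and 11.6 in KD, and 8.72, 8.50 and 6.02 in OE, and fell by 0.39 in OE (adjusted p = 0.0135). Neither fall passed without WT replicate 1 (0.0596 and 0.0604) or OE replicate 3 (0.096 and 0.0955). Epb41l4aos had means of 6.93 CPM in WT, 7.05 in KD and 8.37 in OE (adjusted p = 0.0549 in OE). That rise passed in DESeq2 (0.0454), in limma-voom (0.0436), with upper-quartile factors (0.0325) and without WT replicate 1 (0.0319).

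**Figure D4:**
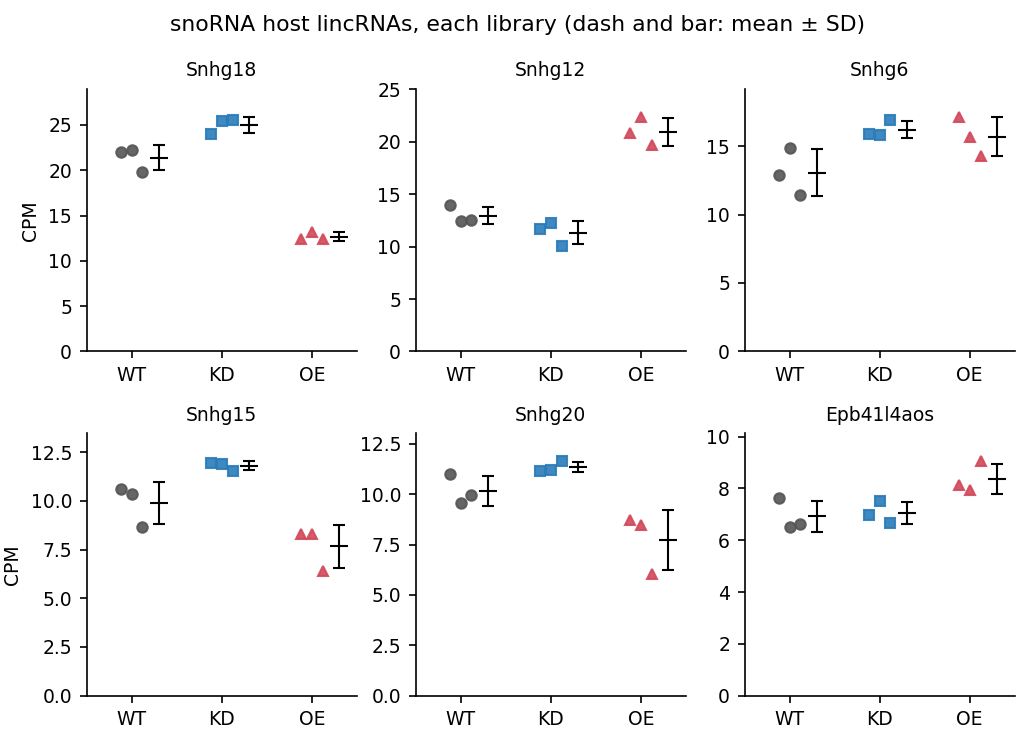
Level in CPM of the 6 snoRNA host lincRNAs in each library of WT, KD and OE, with the mean and SD of 3 libraries beside the points. Snhg12 is highest in OE (19.7 to 22.4 CPM), while Snhg18 is lowest in OE (12.4 to 13.2 CPM).

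The promoters of the host genes that moved furthest in opposite directions in OE are shown from the RefSeq table (GRCm38.p6), which holds 250 bases before and 50 after each start. That of Snhg12 lies at chr4:132308428-132308727 (plus strand) and that of Snhg18 at chr15:32244613-32244912 (minus strand). Many snoRNA hosts are known to start in a run of pyrimidines, so CTTTC was searched on the sense strand within 10 bases of the start, and a match is in capitals.
Snhg12: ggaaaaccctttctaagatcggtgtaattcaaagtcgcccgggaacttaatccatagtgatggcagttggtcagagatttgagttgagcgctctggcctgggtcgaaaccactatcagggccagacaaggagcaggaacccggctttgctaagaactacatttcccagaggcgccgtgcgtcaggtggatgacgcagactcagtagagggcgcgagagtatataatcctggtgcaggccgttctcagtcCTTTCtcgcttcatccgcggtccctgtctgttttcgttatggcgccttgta
Snhg18: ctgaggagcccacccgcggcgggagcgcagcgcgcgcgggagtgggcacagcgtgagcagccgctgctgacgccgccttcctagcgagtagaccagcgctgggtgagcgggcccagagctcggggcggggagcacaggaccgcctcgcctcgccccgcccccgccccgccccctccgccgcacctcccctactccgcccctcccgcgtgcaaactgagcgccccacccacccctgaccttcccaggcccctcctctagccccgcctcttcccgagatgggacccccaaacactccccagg
The window of Snhg12 holds CTTTC at its start and that of Snhg18 does not. RefSeq windows matched 46 of the 76 lincRNAs by symbol. A gene was counted for a motif when any of its windows held it. CTTTC near the start was found in 2 (4.3%), beside 2.91% of all 27025 genes with a window. On either strand, GGGCGG was found in 24 (52.2%, beside 38.2% of all genes with a window) and CCAAT in 23 (50.0%, beside 41.1%). CACGTG was found in 6 (13.0%, beside 8.09%), TATAAA in 5 (10.9%, beside 15.7%) and TGACGTCA in 3 (6.5%, beside 2.03%). Snhg18 holds GGGCGG and Snhg12 holds none of these 5.

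Most of the 8 falls of at least 2-fold in OE were in lincRNAs known only by a predicted-gene or Riken name. 6430584L05Rik, at chr6:55396887-55412285, had 16.7, 17.4 and 14.5 CPM in WT, 20.9, 19.7 and 20.9 in KD, and 6.29, 7.92 and 6.51 in OE. KD was highest and OE lowest in every library. It fell by 1.23 in OE (2.35-fold, SE 0.13, adjusted p = 2.87e-09) and rose by 0.34 in KD (SE 0.08, adjusted p = 0.0102). The nearest protein-coding gene, Adcyap1r1, encodes the receptor of the neuropeptide PACAP and lies 39693 bases away. It had 26.5, 27.9 and 29.2 CPM in WT and 5.54, 4.66 and 4.45 in OE, a fall of 2.51 (adjusted p = 3.83e-15), while KD overlapped WT (adjusted p = 0.791).

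Gm36535, at chr5:111791555-111805689, had 7.49, 8.40 and 8.03 CPM in WT, 10.8, 12.1 and 9.30 in KD, and 4.63, 3.84 and 3.07 in OE. Like 6430584L05Rik it formed 3 separate bands, with KD highest. It fell by 1.05 in OE (2.08-fold, adjusted p = 3.85e-06) and rose by 0.43 in KD (adjusted p = 0.0227). The rise in KD did not pass with library totals alone (0.0705), nor when WT replicate 1 (0.0803) or the first (0.0755) or the second (0.142) KD library was left out.

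Gm17501, which starts 331 bases from Ccn1, the gene of a matricellular protein, had 6.30, 4.39 and 5.84 CPM in WT, 7.77, 7.48 and 7.17 in KD, and 4.54, 4.34 and 2.87 in OE. KD was above WT in every library, and OE overlapped WT. The rise in KD (0.45, adjusted p = 0.04998) lay at the threshold and was lost after leaving out KD replicate 1, 2 or 3 (0.151, 0.122 and 0.0962) or WT replicate 2 (0.168), among others, and the fall in OE was 0.48 (adjusted p = 0.0283) and was lost without WT replicate 1 (0.122), WT replicate 3 (0.0752) or OE replicate 3 (0.162), and with only the groups compared (0.061). Ccn1 was lower in both, by 0.22 in KD and 0.39 in OE (adjusted p = 0.00609 and 1.07e-05).

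Gm12056, Gm13431 and Gm3716 fell in OE and did not pass in KD. Gm12056 had 6.99, 7.44 and 6.47 CPM in WT, 6.62, 6.03 and 6.66 in KD, and 3.28, 2.40 and 2.71 in OE (-1.32, SE 0.14, adjusted p = 1.49e-07). Gm13431, 7492 bases from the prostaglandin synthase gene Ptgs1, had 6.78, 6.64 and 7.72 CPM in WT, 7.49, 6.0 and 5.90 in KD, and 3.01, 3.01 and 2.56 in OE (-1.30, SE 0.10, adjusted p = 2.19e-07). Gm3716 had 8.91, 8.29 and 8.17 CPM in WT, 7.89, 7.66 and 7.11 in KD, and 4.37, 4.06 and 3.58 in OE (-1.08, SE 0.09, adjusted p = 2.71e-07). In each, the OE libraries were below all 6 others, the fall was 2.11-fold to 2.49-fold, and the adjusted p in KD was 0.604, 0.586 and 0.353. Their nearest protein-coding genes, B3gnt2, Ptgs1 and Klf3, did not pass in OE (adjusted p = 0.206, 0.182 and 0.449).

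Gm50321, A330074K22Rik and 5031425E22Rik were lower in both modified lines. Gm50321 had 17.3, 19.1 and 16.7 CPM in WT, 14.7, 13.0 and 12.6 in KD, and 9.25, 9.21 and 7.33 in OE, so that the groups followed each other without overlap. It fell by 0.40 in KD (adjusted p = 0.00491) and by 1.04 in OE (adjusted p = 4.44e-08). A330074K22Rik, which starts 226 bases from Gse1, had 5.48, 6.32 and 6.53 CPM in WT, 4.15, 3.37 and 3.97 in KD, and 3.47, 3.17 and 3.20 in OE, and fell by 0.67 and 0.90 (adjusted p = 0.00117 and 2.68e-05). Gse1 was lower too, by 0.25 in KD and 0.38 in OE. The fixed stretch, of up to 20 Mb, that holds A330074K22Rik had a median change of -0.44 in OE. With that median removed the fall of A330074K22Rik in OE was 0.46. 5031425E22Rik, 172 bases from Kmt2e, had means of 14.1 CPM in WT, 11.4 in KD and 10.4 in OE, and fell by 0.30 in KD (adjusted p = 0.014; 0.0511 without WT replicate 3 and 0.0632 without KD replicate 3) and by 0.43 in OE (adjusted p = 0.000412).

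Gm47283 on the Y chromosome showed the largest fall of the 76 in OE. It had 27.4, 24.9 and 31.6 CPM in WT, 26.7, 25.2 and 21.9 in KD, and 4.99, 4.06 and 3.29 in OE. OE was far below the other 6 libraries, which overlapped. The fall was 6.78-fold (log2 fold change -2.76, SE 0.20, adjusted p = 1.92e-10). Its sequence is identical over 529 bases to that of Erdr1, which is known to lie at the pseudoautosomal end of the X chromosome. Erdr1 had 26.9, 20.8 and 26.2 CPM in WT, 22.3, 22.7 and 21.8 in KD, and 13.9, 12.8 and 8.94 in OE, and fell by 1.05 (SE 0.23, adjusted p = 9.34e-05). Mid1, 3923 bases from Erdr1, was 0.55 lower in OE (adjusted p = 0.000216). Reads of the shared stretch fit both genes, so the 2 falls are not independent.

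Gm12840 on chromosome 4 and Gm20186 on chromosome 6 also share sequence, at 97.5% identity over 628 bases, and for both KD was the lowest group and OE the highest. Gm12840 had 28.2, 26.6 and 27.3 CPM in WT, 17.2, 20.1 and 18.2 in KD, and 39.3, 39.9 and 42.7 in OE. Gm20186 had 19.6, 23.8 and 19.2 CPM in WT, 14.9, 13.6 and 13.4 in KD, and 25.2, 24.5 and 25.4 in OE. In both genes KD lay below WT and OE above it with no overlap. Gm12840 fell by 0.57 in KD (SE 0.07, adjusted p = 3.89e-06) and rose by 0.57 in OE (SE 0.04, adjusted p = 5.72e-07), and Gm20186 fell by 0.58 (SE 0.11, adjusted p = 2.99e-05) and rose by 0.26 (SE 0.10, adjusted p = 0.0152). The 20 Mb stretch that holds Gm12840 had median changes of -0.14 in KD and 0.36 in OE, whereas those of the stretch that holds Gm20186 were 0.09 and 0.04. The rise of Gm20186 in OE did not pass with library totals alone (0.145) or without WT replicate 1 (0.0674), WT replicate 3 (0.0733) or OE replicate 1 (0.0502). AC160336.1, which aligned with both at 91.2% to 92.7% identity, had means of 2.04 CPM in WT, 1.44 in KD and 3.71 in OE, and rose in OE by 0.85 (SE 0.19, adjusted p = 0.00358) but did not pass in KD (-0.51, adjusted p = 0.133). At the WT or the KD level AC160336.1 would be under the minimum count, so it was chosen in part by its rise in OE. Without KD replicate 1 the change in KD was -0.80 and passed (adjusted p = 0.0339).

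**Figure D5:**
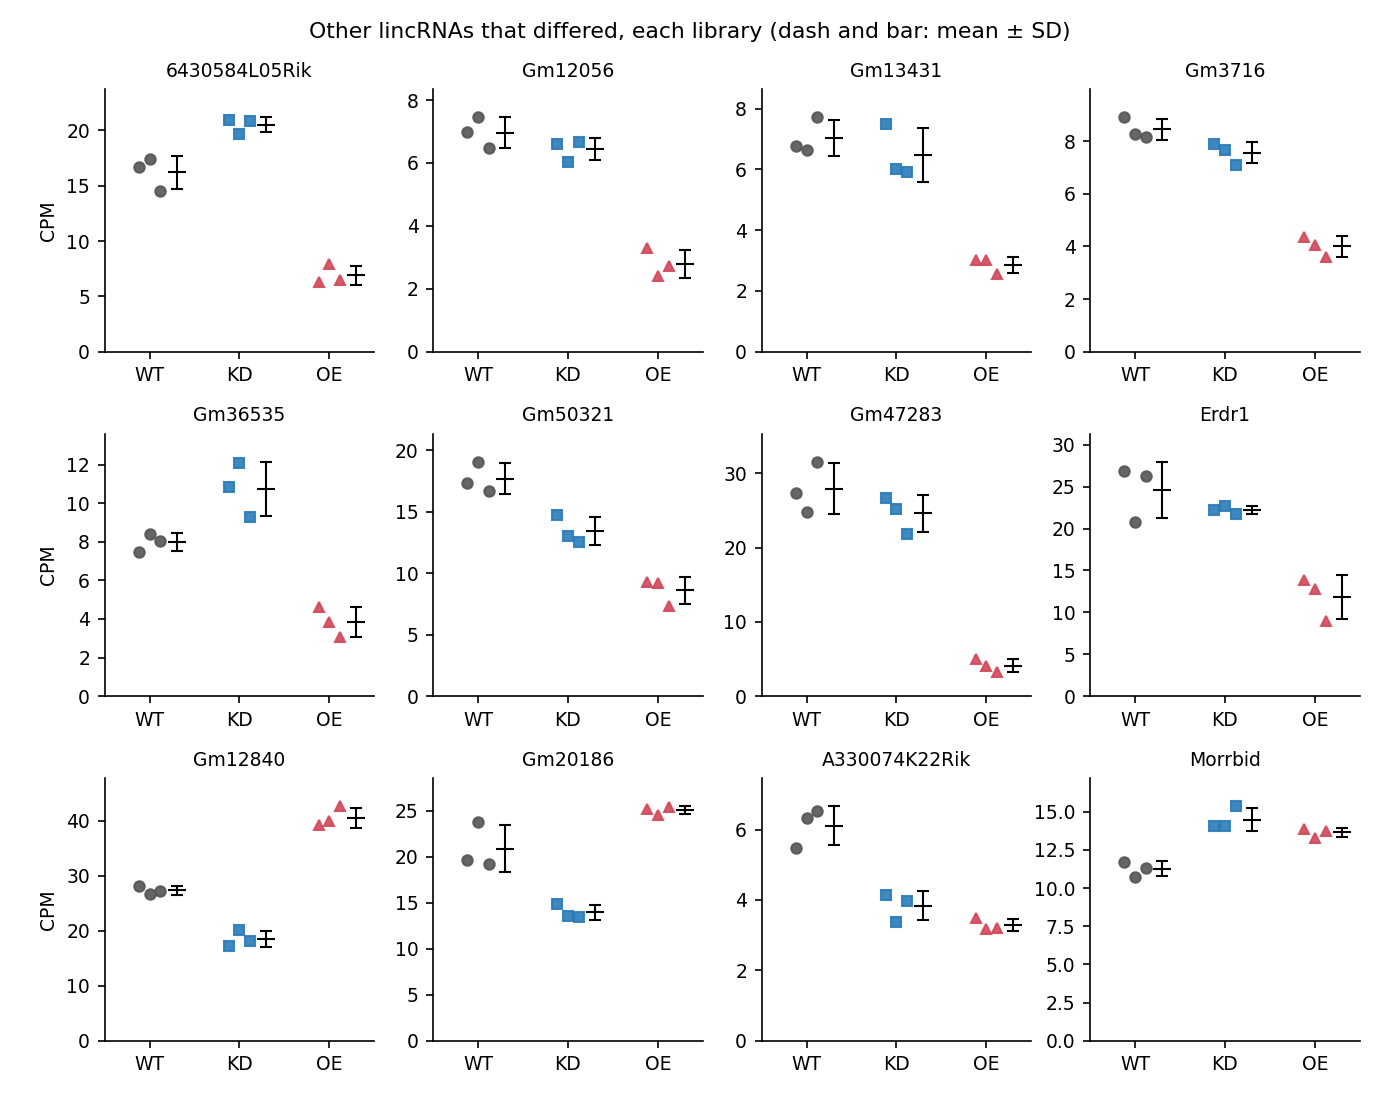
Level in CPM of 12 further lincRNAs in each library of WT, KD and OE, with the mean and SD of 3 libraries beside the points and each axis starting at 0. 6430584L05Rik and Gm36535 are highest in KD and lowest in OE, Gm12840 and Gm20186 show the opposite order, and Gm47283 drops from 28.0 CPM in WT to 4.11 in OE.

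Of the lincRNAs called in OE, 15 are not described above. Upward were Gm13003 (0.65), Gm32856 (0.63), Gm49890 (0.55), 5033428I22Rik (0.42) and AU020206 (0.32) on the log2 scale. Downward were 10 in the range from -0.28 (2700038G22Rik) to -0.85 (Gm34256), among them BC030343 (-0.77), 4930461G14Rik (-0.67) and 2700033N17Rik (-0.57, 379 bases from the homeobox gene Meis2, which was 0.27 lower). At the OE level BC030343 would be under the minimum count, so it was chosen in part by its higher level in the other groups. With the medians of their 20 Mb stretches removed, the calls in OE of Gm13003, Gm49890, Gm46430 and 4930461G14Rik were lost, as were those of Snhg15 and Snhg6.

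A tested protein-coding gene lay within 1 Mb of 75 of the 76, at a median distance of 7485 bases, and within 10 kb of 40. All 16 lincRNAs called in KD had such a neighbour, which was called too for 5 (beside 21.3% of all genes tested), with the same sign for 2 (Gm12840 with Dmap1, A330074K22Rik with Gse1) and the opposite sign for 3 (Morrbid with Bcl2l11, Gm36535 with Mn1, Gm17501 with Ccn1). In OE, 38 had one, which was called for 16 (beside 36.4% of all genes tested), with the same sign for 13 and the opposite sign for 3. The opposite ones were Gm50321 with Incenp, D5Ertd605e with Pan3 and 4930461G14Rik with Insyn1. Between OE and KD, 38 had one, which was called for 21 (beside 41.5% of all genes tested), with the same sign for 15 and the opposite sign for 6. These are descriptions, since neighbours also share chromosome stretches whose median moved.

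Related genes were counted in lists, to be read beside the shares of all genes called given above. Of 17 snoRNA hosts tested in all biotypes, 6 rose and 3 fell in OE (median 0.11), against 2 and 1 in KD (median 0.03). The hosts that rose in OE outside the lincRNA class were Gas5 (0.52), Snhg1 (0.39), Snhg5 (0.31) and Zfas1 (0.24). Of 12 core proteins of snoRNA particles, 8 rose and 0 fell in OE (median 0.17), among them Nop56 (0.48, adjusted p = 5.36e-09) and Rrp9 (0.31, adjusted p = 0.00037), and 4 rose in KD, among them Naf1 (0.37) and Nop58 (0.32). The medians of all genes tested were 0.00 in both.

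Of 15 paraspeckle protein genes, the partners of Neat1, 5 rose and 2 fell in OE (median 0.03). Tardbp rose by 0.25 and Smarca4 fell by 0.28 (adjusted p = 1.64e-05), and in KD 3 fell, Hnrnph3 by 0.39. Nonsense-mediated decay, which degrades many spliced host RNAs, had 6 of 14 factors higher and 1 lower in OE, with Magoh at 0.46 (adjusted p = 3.11e-07). Of 17 genes of the nuclear RNA exosome and its adaptors, 7 rose and 4 fell in OE. Those that fell were Mphosph6 (-0.505), Rbm7 (-0.497, adjusted p = 1.02e-07), Exosc7 (-0.405) and Mtrex (-0.279). The adaptor genes went both ways, since Zcchc8 (0.233, adjusted p = 0.000719) and Zfc3h1 (0.409) were among those that rose. Of 10 protein factors of X inactivation, 6 rose in OE, with Lbr at 0.51. Of 21 tested noncoding RNAs with a described function, 3 rose and 2 fell in OE, where Kcnq1ot1 rose by 1.01 (adjusted p = 6.16e-07) and Tug1 fell by 0.68, and of 8 microRNA hosts only Mir22hg was called against WT, higher in KD by 0.42 (adjusted p = 0.00745).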

How the data were processed

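RNA-seq of 9 MCEC libraries (WT, KD and OE, 3 each) was used. Per the labels' protocols, RNA was poly-A selected, reverse transcribed with random hexamers and sequenced as paired reads of 150 bases. The authors deposited whole-number counts per Ensembl gene, not normalised. The submitters' processing notes name the builds GRCm38 and mm10; the aligner, counting program, annotation and use of strand are not given in the sources used here. The table has 55774 rows, 168 genes stand on 455 rows with identical counts and were counted once, and 0 columns were left unmapped.

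Genes were kept with filterByExpr (16955), scaled with TMM and fitted in edgeR 4.0.16 (R 4.3.3, robust quasi-likelihood) to all 9 libraries at once, with no term but the group and Benjamini-Hochberg adjustment over all genes tested and a threshold of 0.05. CPM was computed with TMM library sizes. The SE of a log2 fold change comes from the SDs of log2 CPM with a prior count of 2. An exact permutation test of 3 against 3 libraries cannot give a two-sided p below 0.1. Positions and exon lengths are from GENCODE M21, sequence similarity from BLAST+ 2.17.0 (90% identity, 300 bases), and RefSeq names matched 59 of the 76 genes. Window medians are median log2 fold changes of the fixed 20 Mb stretch that holds the midpoint of a gene. Stretches are counted from the start of each chromosome, so a gene can lie at the edge of its stretch. The last stretch of a chromosome can be shorter than 20 Mb. Alternatives were DESeq2 1.42.0, limma-voom (limma 3.58.1), other scalings, filters, samples and thresholds, window medians removed, the replicate number as a block, and leaving out each library.

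The fit was tested on simulated data. Named genes are those in the lists of noncoding RNAs, the 5 highest sums, in each comparison against WT the 6 lincRNAs called with no overlap that rose most and the 6 that fell most, and the 4 with the same and the 4 with opposite signs in both comparisons with the largest smaller change, besides the 3 nearest the minimum count on either side. Other lincRNAs, neighbours and list genes that are named were chosen after their values were seen. The members and lists were chosen with earlier results of these data known.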

Additional observations from a re-analysis of the deposited data

How the results depend on the processing

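For the 76 lincRNAs, a minimum fold change of 1.5 left 4 higher and 0 lower in KD, 4 higher and 8 lower in OE, and 4 higher and 9 lower in OE against KD. A minimum of 5000 summed counts left 7 higher in KD, 9 higher and 8 lower in OE, and 5 higher and 12 lower in OE against KD, out of 27 genes. Library totals alone gave 6 higher in KD, and leaving out the 4 genes that share sequence, chosen after seeing the data, gave 7. Leaving out each library in turn gave 6 to 11 higher and 4 to 7 lower in KD, 12 to 16 and 18 to 25 in OE, 9 to 12 and 26 to 33 in OE against KD, and 41 to 47 with any difference. Snhg15 in OE reversed to 0.151 with window medians removed, where its own stretch had moved by more. Leaving out the 8 that 1 group's level would put under the minimum, also chosen after seeing the data, gave 8 higher in KD. The other counts stayed within 1.5 times. A test of any difference was not run on only the groups compared or with a minimum fold change. The replicate number as a block gave 11 higher and 6 lower in KD and 15 and 26 in OE. Departures from the group mean had correlations from -0.042 to 0.049 between same-numbered libraries. No shared departure by number was thus seen. Whether same-numbered libraries were handled together cannot be told from this. Depth limits the genes near the minimum most: 4930558J18Rik, with 1017 counts, was 0.33 higher in OE without passing (SE 0.19, adjusted p = 0.184).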
